A study of Mus musculus with 4 samples.

Results

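The readers of H3K36 methylation examined here are 10 genes whose proteins bind methylated lysine 36 of histone H3: *Morf4l1*, *Psip1*, *Hdgfl2*, *Zmynd11*, *Glyr1*, *Msh6*, *Brpf1*, *Phf1*, *Mtf2* and *Phf19*. They were taken by gene symbol from the deposited transcript table, which gave 28 transcripts of 34200, and all 10 genes had at least 1 transcript in it. The RNA came from the mouse fibroblast line NIH/3T3, in which SETD2, the main enzyme that trimethylates H3K36, was knocked down. The KD group of 2 libraries was transfected with *Setd2*-specific siRNAs and the WT group of 2 libraries with a Scrambled siRNA, each at 10 nM, and polyadenylated RNA was taken at 48 h. The paper describes a pair of *Setd2* siRNAs given together, while the series description lists them as separate transfections, and the labels do not say which siRNA each KD library received, so the spread within KD may hold a difference between siRNAs. The WT cells were transfected too, and all 4 libraries share the cell line and the transfection reagent. Each transcript has a deposited mean and variance over the 4 libraries together. Values of single libraries, and the authors' own comparison of KD with WT, were not used here, so the levels below are those of KD and WT cells together and no direction of change is given.

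H3K36me3 is laid down along the bodies of transcribed genes, and reader proteins recognise it through an aromatic cage that closes around the methylated lysine. In 6 of the genes (*Psip1*, *Hdgfl2*, *Zmynd11*, *Glyr1*, *Msh6* and *Brpf1*) this cage sits in a PWWP domain. In *Phf1*, *Mtf2* and *Phf19*, the Polycomb-like proteins, it sits in a Tudor domain, and in *Morf4l1*, which encodes MRG15, in a chromodomain. Through these readers the mark is linked to histone acetylation and deacetylation, splicing, elongation, mismatch repair and Polycomb repression. The study asked what happens to transcripts when the mark is depleted. The values below show how abundant the readers' own mRNAs were in these cells and which isoforms carried them. They also show how far the mean levels of these KD and WT libraries could have differed.

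In most readers with several transcripts, the transcripts differ in short coding segments, and the sequences of the segments that tell the abundant isoforms apart are shown first because the isoform levels below turn on them. They were read from GENCODE M21 transcripts (GRCm38). Capitals mark the segment itself, given by its coordinates, and lower case marks the neighbouring bases of the spliced transcript. The segment of *Morf4l1* is an exon of 117 bases (39 residues) at chr9:90103655-90103771, minus strand, present in Morf4l1-201 and absent from the more abundant Morf4l1-202.
Morf4l1-201: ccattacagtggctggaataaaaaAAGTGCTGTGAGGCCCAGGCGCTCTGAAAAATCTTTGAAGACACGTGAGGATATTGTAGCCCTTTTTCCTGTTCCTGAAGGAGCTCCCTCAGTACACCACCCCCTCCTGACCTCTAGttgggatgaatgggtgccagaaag
The *Glyr1* segment is an upstream extension of an exon by 18 bases (6 residues) at chr16:5021431-5021448, minus strand, carried by Glyr1-202 and not by Glyr1-201.
Glyr1-202: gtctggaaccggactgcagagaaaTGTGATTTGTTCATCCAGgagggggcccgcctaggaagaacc
The *Zmynd11* segment is an exon of 162 bases (54 residues) at chr13:9710146-9710307, minus strand, shown as Zmynd11-203 carries it.
Zmynd11-203: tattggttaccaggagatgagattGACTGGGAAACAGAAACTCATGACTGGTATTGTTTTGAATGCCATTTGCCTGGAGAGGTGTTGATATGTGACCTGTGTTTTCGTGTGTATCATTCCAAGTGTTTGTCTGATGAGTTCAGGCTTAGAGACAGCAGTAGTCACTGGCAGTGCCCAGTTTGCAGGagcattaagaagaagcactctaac

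The *Psip1* transcripts part after the same 24 bases shown in lower case, on the minus strand of chromosome 4. The long form, Psip1-201, goes on into an exon at chr4:83461186-83461241, while the short forms end in coding tails at chr4:83462452-83462473 (Psip1-203) and chr4:83462544-83462553 (Psip1-202). The stop codon follows the capitals in both short forms and is not shown.
Psip1-201: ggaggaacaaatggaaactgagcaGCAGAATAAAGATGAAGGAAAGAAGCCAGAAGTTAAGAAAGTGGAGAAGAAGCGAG
Psip1-203: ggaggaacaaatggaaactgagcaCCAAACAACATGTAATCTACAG
Psip1-202: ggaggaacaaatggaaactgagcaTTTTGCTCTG

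As a check of the cells, all 7 fibroblast markers were in the table, from 570 (*Pdgfrb*) to 68589 (*Vim*) normalised estimated counts per kilobase. Of 7 markers of macrophages, leukocytes, epithelium and endothelium, *Epcam* and *Krt18* were not among the transcripts tested, *Cd68* was at 287 and the other 4 lay between 6.40 and 11.5. The targeted gene, *Setd2*, had a mean of 1844 normalised estimated counts (ENSMUST00000153838.7), and its standard deviation (SD) over the 4 libraries was 1.15 on the log2 scale, wider than in 99.2% of the transcripts with a level of at least 100. Single values of *Setd2* in KD and WT libraries were not used here. A level is the geometric mean over the libraries of estimated reads divided by a size factor, and levels of different genes are compared only after division by transcript length. The depth of the libraries is unknown, so no interval for counting error is given.

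The 10 readers covered a 150-fold range of level per kilobase, with *Morf4l1* highest at 7318 normalised estimated counts per kilobase and *Phf19* lowest at 48.8. *Psip1* (3523), *Hdgfl2* (2866) and *Glyr1* (2751) followed *Morf4l1*. *Phf1* (1140), *Msh6* (1132) and *Zmynd11* (1042) formed a middle level, and *Mtf2* (768) and *Brpf1* (563) lay below them. Among all genes in the table, *Morf4l1* stood above 97.2% in level per kilobase, *Brpf1* above 69.9% and *Phf19* above 41.3%. Neighbours in this order were set against the sum of their SDs over the libraries, each weighted over the gene's transcripts. The steps from *Morf4l1* to *Psip1* (2.08-fold), from *Psip1* to *Hdgfl2* (1.23-fold), from *Glyr1* to *Phf1* (2.41-fold), from *Zmynd11* to *Mtf2* (1.36-fold) and from *Brpf1* to *Phf19* (11.5-fold) were larger than that sum. *Hdgfl2* and *Glyr1*, *Phf1* and *Msh6*, *Msh6* and *Zmynd11*, and *Mtf2* and *Brpf1* did not differ beyond it. The weighted SD is a mean of transcript SDs and not the SD of a gene's level. The latter cannot be had from the values used here. For *Mtf2* and *Brpf1* the step was 0.45 on the log2 scale against a sum of 0.51. The *Brpf1* part of that sum includes Brpf1-202, with an SD of 4.49 and 2.02% of the gene's counts.

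**Figure D1:**
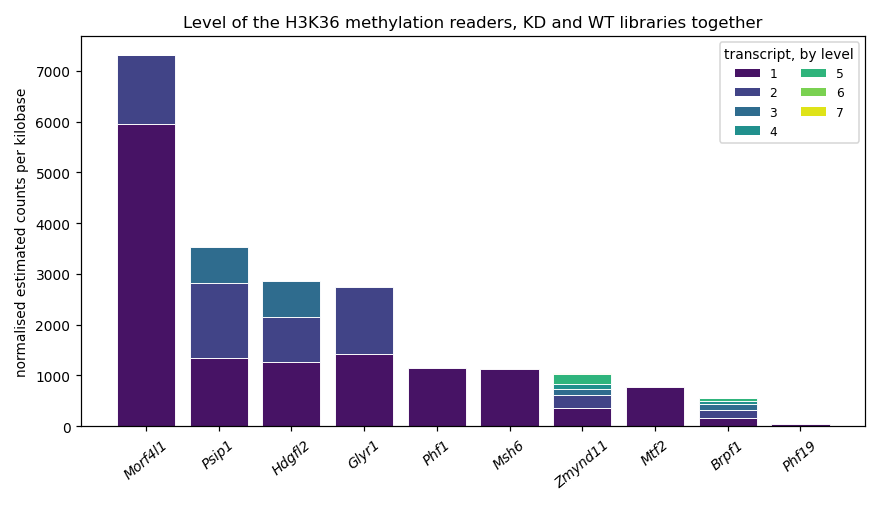
Stacked bars show the level per kilobase (normalised estimated counts per kilobase, KD and WT libraries together) of each reader gene, with 1 block for each transcript in order of its level. *Morf4l1* reaches 7318, mostly in 1 transcript, *Psip1*, *Hdgfl2* and *Glyr1* lie between 2751 and 3523 in 2 or 3 large blocks, and *Phf19* is barely visible at 48.8.

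To ask how far the KD and WT means of each reader could have differed in these libraries, a limit was computed from the variance over the libraries. It does not bound the effect of the knockdown itself, which the spread between replicates can mask. With 2 libraries in each group, the squared difference between the KD and WT means cannot exceed 3 times the variance over all 4, so the square root of that product is the largest difference, in either direction, that these libraries can hold. The limit is an algebraic bound and not a test. The actual difference can be anything from 0 up to it, since the variance also holds the spread between replicates. Of the 28 reader transcripts, 15 had a limit under 0.5 on the log2 scale and 22 a limit under 1. Over all transcripts tested, 46.4% and 77.2% lay under these values, so the readers' shares of 53.6% and 78.6% were close to the background. Among transcripts with a level of at least 100, the shares were 62.5% of 24 reader transcripts against 66.2% of all for a limit under 0.5, and 87.5% against 92.7% for a limit under 1. The median SD over the libraries in this range was 0.19 for the readers and 0.22 for all 18808 transcripts.

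**Figure D2:**
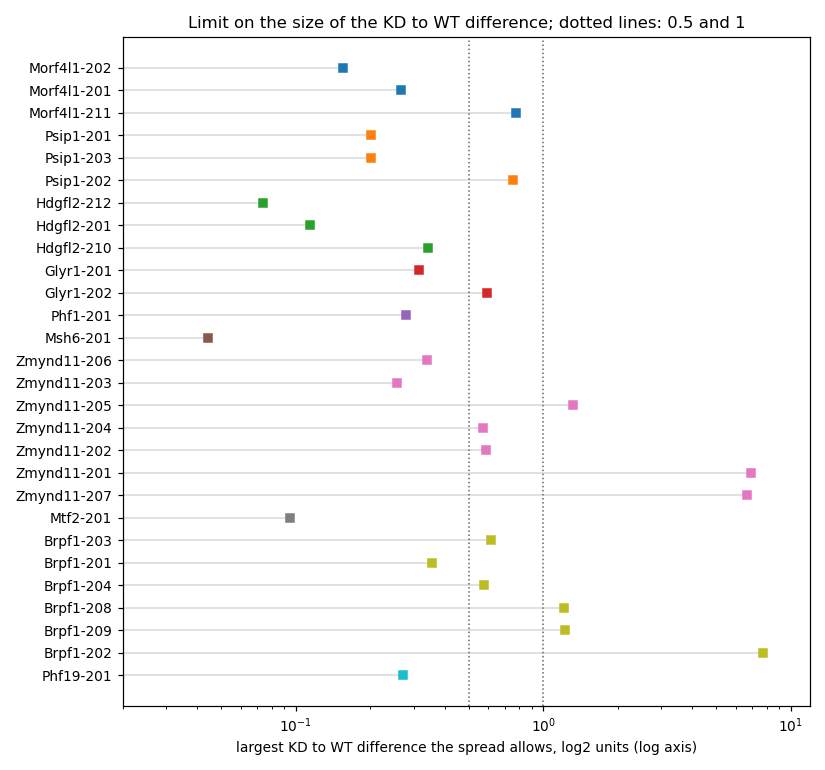
Each square is a reader transcript, placed by the largest difference between KD and WT that its spread over 4 libraries allows (log2 units, log axis), with dotted lines at 0.5 and 1. *Msh6* lies furthest to the left at 0.04, 22 transcripts lie under 1, and Brpf1-202, Zmynd11-201 and Zmynd11-207 lie beyond 6.

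*Morf4l1* encodes MRG15, a subunit of the NuA4 acetyltransferase and SIN3B deacetylase complexes that also binds splicing regulators. Its tested transcripts span chromosome 9 from 90091665 to 90114774 on the minus strand, and 3 of its 12 annotated transcripts were tested. Morf4l1-202, which encodes 323 residues, held 10862 normalised estimated counts, 80.9% of the gene's level. Morf4l1-201, which carries the 117-base exon printed above and encodes 362 residues, held 2547, and Morf4l1-211 held 12.5. Per kilobase the form without the exon was 4.40 times as abundant as the form with it, a step of 2.14 on the log2 scale against a summed SD of 0.24. The level of Morf4l1-202 had an SD of 0.09 on the log2 scale, so KD and WT can have differed by at most 1.11-fold, and Morf4l1-201 by at most 1.20-fold. Only 41.9% of the 31-base words of Morf4l1-202 occur in no other annotated gene, and 895 words of the tested *Morf4l1* transcripts are shared with *Morf4l1-ps1*. The read assignment SD of this transcript was 0.02 on the log2 scale. How reads were shared out between the gene and its copies was not tested, and the level of *Morf4l1* is given with that limit.

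*Psip1* encodes LEDGF, whose long form, known as p75, carries a C-terminal domain that binds MLL1-menin and other partners and whose short form, p52, lacks it. They span chromosome 4 from 83455680 to 83486459 on the minus strand, and 3 of its 7 annotated transcripts were tested. Psip1-201 encodes 528 residues and had a level of 4347 normalised estimated counts. Psip1-203 (331 residues) had 2814 and Psip1-202 (327 residues) had 1386. Because the short transcripts are also shorter as RNA, both together made up 49.1% of the counts but 62.0% of the level per kilobase. Psip1-201 and Psip1-203 stood at 1337 and 1483 per kilobase and did not differ beyond their spread. Their SDs over the libraries were both 0.12 on the log2 scale, with a limit of 1.15-fold on a KD to WT difference. Psip1-202, which differs from Psip1-203 in where its last exon starts, varied more, with an SD of 0.43 and a limit of 1.69-fold. Of the words of Psip1-203, 1.61% occur in no other tested transcript, against 60.7% for the long form. Between 77.5% and 79.7% of the words of the *Psip1* transcripts occur in no other annotated gene, with 470 shared with *Gm15773* and 196 with *Snapc3*.

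*Hdgfl2* (HRP-2) is a paralogue of LEDGF with the same pair of domains. It spans chromosome 17 from 56079634 to 56100598 on the plus strand, and 3 of its 12 annotated transcripts were tested, with 2887 (Hdgfl2-212), 1969 (Hdgfl2-201) and 1621 (Hdgfl2-210) normalised estimated counts. Hdgfl2-201 lacks 1 residue at each of 2 exon starts, and Hdgfl2-210 has 27 more bases (9 residues) at an exon start. The total was below that of *Psip1*, which was 1.23 times as abundant per kilobase, a step larger than the sum of their weighted SDs. The 3 transcripts had limits of 1.05-fold, 1.08-fold and 1.27-fold. For Hdgfl2-212 and Hdgfl2-201 the SD over the libraries, 0.04 and 0.07 on the log2 scale, was smaller than the SD from assigning reads to isoforms (the read assignment SD), 0.06 and 0.08.

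*Glyr1* encodes NPAC, a cofactor of the H3K4 demethylase KDM1B that travels with transcribed chromatin. It spans chromosome 16 from 5013909 to 5049863 on the minus strand, with 2 of 5 annotated transcripts tested. Glyr1-201 (546 residues) had 4652 normalised estimated counts and Glyr1-202 (552 residues), with the 18 bases printed above, had 4388. The forms without and with the 6 residues were thus present at 51.6% and 48.4% of the level per kilobase and did not differ beyond their spread. Their spread was unequal: the SD was 0.18 for Glyr1-201 and 0.34 for Glyr1-202, with limits of 1.24-fold and 1.51-fold. Both SDs exceeded the read assignment SD of 0.07. *Kdm1b*, the demethylase NPAC works with, stood at 205 per kilobase with a limit of 0.20 on the log2 scale for its only tested transcript, and its relative *Kdm1a* stood at 1023.

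*Zmynd11* encodes a reader of H3.3K36me3 that restrains elongation. It spans chromosome 13 from 9684833 to 9765314 on the minus strand, and 7 of its 26 annotated transcripts were tested. Zmynd11-206 led with 1322 normalised estimated counts and Zmynd11-203 followed with 1023. The next were Zmynd11-205 (490), Zmynd11-204 (393) and Zmynd11-202 (353), and Zmynd11-201, which has the same coding region as Zmynd11-206, and Zmynd11-207 had 27.6 and 24.1. The 162-base exon is present in 4 of the 7, which made up 65.1% of the level per kilobase, and a further 168 coding bases are present in Zmynd11-202 and Zmynd11-207, which made up 18.8%. In counts these shares were 62.2% and 10.4%. Zmynd11-206 and Zmynd11-203 had limits of 1.27-fold and 1.20-fold, and together they held 64.6% of the gene's counts. At most 5.98% of the words of any *Zmynd11* transcript occur in no other tested transcript, and 0% of those of Zmynd11-206. The levels of the single isoforms are given with that limit. Zmynd11-205 had an SD of 0.76 and a limit of 2.50-fold, and its read assignment SD was also wide, 0.59 on the log2 scale.

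*Brpf1* encodes the scaffold of the MOZ and MORF acetyltransferase complexes. It spans chromosome 6 from 113307137 to 113324860 on the plus strand, and 6 of its 10 annotated transcripts were tested. Brpf1-203 and Brpf1-201 had equal levels of 748 and 747 normalised estimated counts, followed by Brpf1-204 (549), Brpf1-208 (282), Brpf1-209 (204) and Brpf1-202 (52.2). A coding segment of 102 bases (34 residues) is present in Brpf1-201, Brpf1-202 and Brpf1-208 and absent from the others, and these 3 made up 42.3% of the level per kilobase. Brpf1-209, which lacks an exon of 285 bases (95 residues), made up 8.41%. The assignment of reads among the *Brpf1* transcripts varied widely. The read assignment SD was 0.22 for Brpf1-203, 0.32 for Brpf1-201 and 1.54 for Brpf1-208, and at most 0.68% of the words of any *Brpf1* transcript occur in no other tested transcript. The limits of Brpf1-203, Brpf1-201 and Brpf1-204 lay between 1.28-fold and 1.53-fold, and those of Brpf1-208 and Brpf1-209 were 2.33-fold and 2.34-fold.

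*Msh6*, the mismatch repair subunit whose PWWP domain binds H3K36me3, was the least variable of the readers. Its only tested transcript, on chromosome 17 (87975062 to 87990892, plus strand), encodes 1358 residues and had 4810 normalised estimated counts. Its SD over the libraries was 0.03 on the log2 scale, smaller than in all but 0.40% of the transcripts with a level of at least 100. The means of KD and WT can have differed by at most 1.03-fold, or 0.04 on the log2 scale. Its read assignment SD was 0.02, and 90.4% of its words occur in no other annotated gene, with 403 shared with *Gm11855*. Of the 7 mismatch repair genes listed, *Pcna* was highest (7520 per kilobase) and *Mlh3* lowest (63.6).

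The Polycomb-like proteins PHF1, MTF2 and PHF19 bring Polycomb repressive complex 2 to its targets. Each gene had 1 tested transcript. *Phf1* (chromosome 17, 26933052 to 26937908, plus strand; 559 residues) had 2875 normalised estimated counts, *Mtf2* (chromosome 5, 108065742 to 108109004, plus strand; 593 residues) had 3118 and *Phf19* (chromosome 2, 34893757 to 34913976, minus strand; 578 residues) had 183. The position and length of *Phf1* are those of another version of its tested transcript. Per kilobase *Phf1* was 23.3 times and *Mtf2* 15.7 times as abundant as *Phf19*. The limit was 1.07-fold for *Mtf2*, 1.21-fold for *Phf1* and 1.21-fold for *Phf19*. The *Phf1* transcript shares 590 words of 31 bases with *Cuta*, and 76.3% of its words occur in no other annotated gene. The *Mtf2* transcript shares 366 words with *Tmed5*, and 90.4% of its words occur in no other annotated gene.

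**Figure D3:**
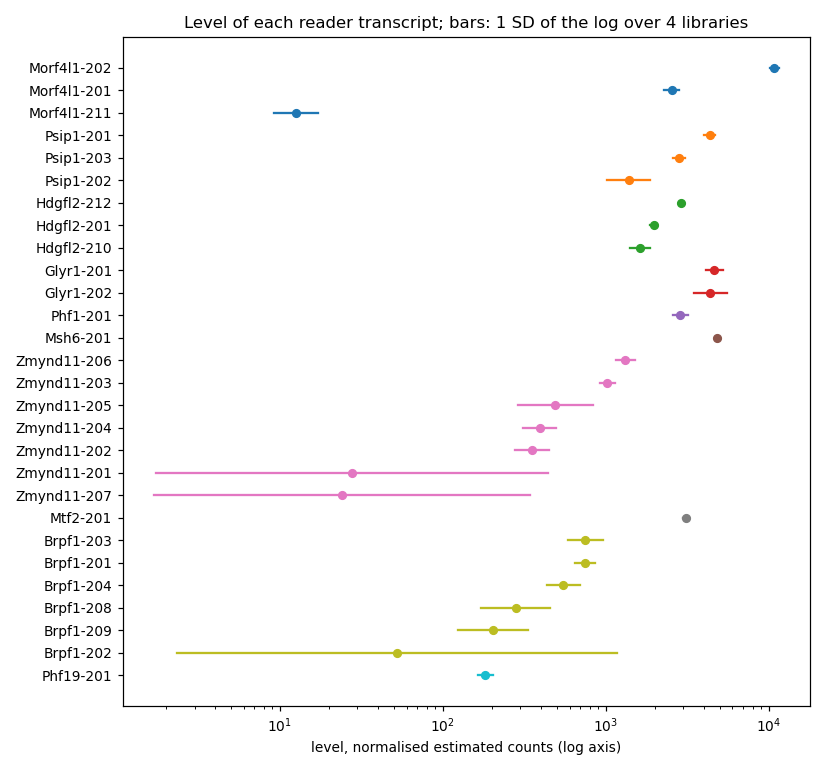
Points show the level of each of the 28 reader transcripts (normalised estimated counts, log axis, KD and WT libraries together) and bars 1 SD of the log values over the 4 libraries. Morf4l1-202 is highest at 10862, most bars are narrow, and the bars of Brpf1-202, Zmynd11-201 and Zmynd11-207 span more than a 100-fold range.

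The 3 transcripts with the widest spread belonged to *Brpf1* and *Zmynd11*. Brpf1-202 had an SD of 4.49 on the log2 scale, Zmynd11-201 of 4.0 and Zmynd11-207 of 3.83. They held 2.02% of the counts of *Brpf1* and 0.76% and 0.66% of those of *Zmynd11*. If 1 library had 0 counts of Brpf1-202 and the other 3 were equal, the deposited variance would correspond to a mean level of 52.6, against the deposited 52.2. If 2 libraries had 0 counts and the others were equal, it would correspond to 6.89. For Zmynd11-201 the same calculation gives 31.4 and 5.00 against a deposited 27.6, and for Zmynd11-207 26.4 and 4.50 against 24.1. Other patterns were not calculated, and no value of a single library was seen. The read assignment SDs of these transcripts were wide as well, at 0.94 for Brpf1-202, 2.76 for Zmynd11-201 and 2.11 for Zmynd11-207 on the log2 scale. What the spread of these transcripts comes from was not tested.

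**Figure D4:**
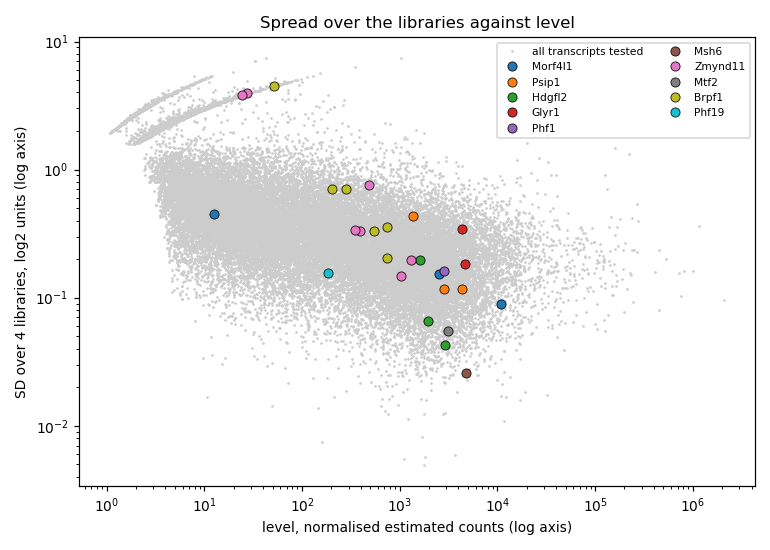
Each grey dot is a transcript tested and each coloured dot a reader transcript, by level (normalised estimated counts, log axis) and SD over the 4 libraries (log2 units, log axis). The *Msh6*, *Mtf2* and leading *Hdgfl2* dots lie at the lower edge of the cloud, and Brpf1-202, Zmynd11-201 and Zmynd11-207 lie far above it, on a band of transcripts with SDs of about 4.

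In 22 of the 28 reader transcripts (78.6%) the variance over the libraries exceeded the read assignment variance, against 72.3% of all transcripts tested. The 6 others were Hdgfl2-212, Hdgfl2-201, Brpf1-201, Brpf1-208, Brpf1-209 and Morf4l1-211. Among transcripts with a level of at least 100 the shares were 79.2% of 24 and 87.3% of all. The median ratio of the variances was 2.49 in the readers and 2.55 over all transcripts, and 2.49 and 7.25 among those with a level of at least 100. It was highest in *Phf1* (34.3), Glyr1-202 (24.3) and Psip1-201 (23.3), for which little of the spread lay in read assignment. How much of the remaining spread lay between KD and WT was not tested.

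**Figure D5:**
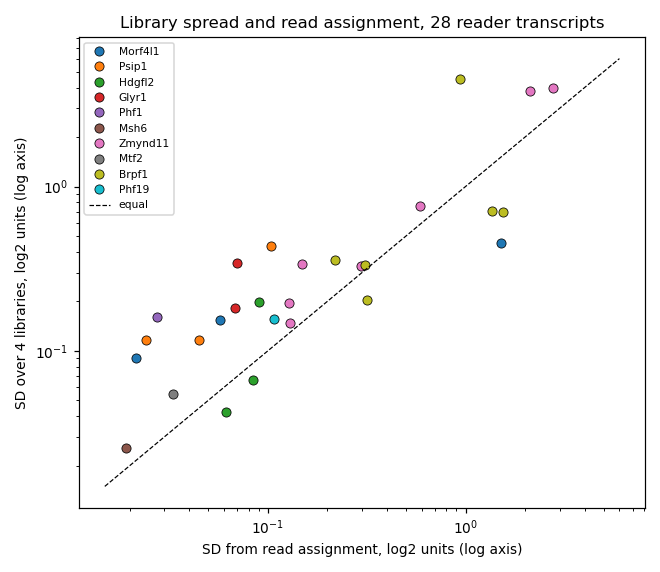
Dots show the 28 reader transcripts by the SD from read assignment (horizontal) and the SD over the 4 libraries (vertical), both in log2 units on log axes, with a dashed line where they are equal. Dots of *Phf1*, *Psip1* and *Glyr1* lie well above the line, and 6 dots lie below it.

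The genes with which the readers work were described by the same values. Of the partners of MRG15 and LEDGF, 17 of 18 listed symbols were tested, with a median of 786 normalised estimated counts per kilobase. *Morf4l2*, a paralogue of *Morf4l1* that encodes MRGX, was highest (12196), *Kmt2a*, which encodes MLL1, was lowest (166), and *Men1*, which encodes menin, had the widest spread of a leading transcript (SD 0.36, limit 0.63 on the log2 scale). In 15 of these 17 genes the limit of the leading transcript was under 0.5. Of the MOZ, MORF and HBO1 complex genes, 8 of 8 were tested and 7 had such a limit. *Meaf6* was highest (1419 per kilobase), *Kat6b*, the MORF acetyltransferase, was lowest (239), and *Kat7*, the HBO1 acetyltransferase, had the widest spread (SD 0.30).

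Of the Polycomb repressive complex 2 genes, 8 of 9 were tested, with *Epop* not among the transcripts tested. *Rbbp7*, a histone chaperone subunit, was highest (4773 per kilobase) and had the widest spread (SD 0.45, limit 0.78), and *Jarid2* was lowest (185). Of the core subunits, *Eed* (2553), *Suz12* (1714) and the methyltransferase *Ezh2* (1354) stood above *Phf1* and *Mtf2*, and *Ezh1* (347), the other methyltransferase, stood below both. Unlike the readers, these genes were not set against the sum of the weighted SDs. *Ezh2* lay close to *Phf1* (1140), and their weighted SDs were 0.30 and 0.16 on the log2 scale. In 6 of the 8 genes the limit of the leading transcript was under 0.5.

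Of the other genes with a PWWP domain, 14 of 15 listed symbols were tested, with a median of 726 per kilobase. *Hdgf*, a growth factor related to *Hdgfl2*, was highest (8497) and *Nsd1*, an H3K36 methyltransferase, lowest (20.9). The 2 tested *Nsd1* transcripts held only 21.8 normalised estimated counts together, 17.6 of them in the leading one. The place of *Nsd1* thus rests on very low counts of these transcripts. *Nsd3*, of the same family as *Nsd1*, had the widest spread (SD 0.99, limit 1.71). Among the 12 H3K36 methyltransferases and demethylases, *Smyd2* was highest (2805 per kilobase), *Nsd1* was again lowest, and the targeted *Setd2* had the widest spread, with a limit of 2.00 on the log2 scale. The limit of the leading transcript was under 0.5 in 6 of these 12 genes, in 9 of the 14 other PWWP domain genes, in 7 of the 7 mismatch repair genes and in 9 of the 10 readers, *Brpf1* being the exception. Over all 21945 genes it was under 0.5 in 52.6%, and in 73.9% of the 12029 genes whose leading transcript had a level of at least 100, as it had in each of the readers.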

How the data were processed

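RNA-seq of 2 KD and 2 WT libraries was analysed, grouped by the *Setd2* status in the labels. Before deposit, reads were trimmed by the authors using BBDuk (38.22), assigned to transcripts by Kallisto (0.44.0) and modelled in Sleuth (0.30.0); the transcriptome index and filter on low counts are not given in the sources used here, and the submitters' processing notes also name bcl2fastq (2.17), HISAT2 and GRCm38. The deposited means are natural log values of estimated counts divided by a size factor, plus 0.5, averaged over the 4 libraries. The deposited variances are those over the 4 libraries and from read assignment. The other columns hold the authors' own comparison (effects, standard errors, test statistics, residual variances, p-values and q-values), as does the gene table, and were not used. No file used here holds values of single libraries, so no test of KD against WT was made, although the design provided for one, and no depth can be given.

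Levels were computed as the exponential of the mean minus 0.5, added up over the transcripts of each gene or divided by transcript length. SDs are square roots of the variances, converted to log2. The limit on a KD to WT difference is the square root of 3 times the variance, which was taken as a sample variance. The formula was run on simulated data with a sample variance. That run cannot show whether the deposited variance is of this kind. Lengths, positions and coding segments came from GENCODE M21, which held 98.6% of the transcripts with the same version. Words of 31 bases were compared on both strands over all annotated transcripts. The members, gene lists and named genes (all members, *Setd2* and, in each list, the highest, the lowest and the one with the widest spread among leading transcripts with a level of at least 100) were chosen with earlier results of these data known. 1 gene that this rule names is not reported here. *Suz12*, *Eed*, *Ezh1* and *Ezh2* were added after their values were seen. Python 3.11.15, numpy, pandas and matplotlib were used.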

Additional observations from a re-analysis of the deposited data

How the results depend on the processing

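With 200 bases taken off each transcript length, as an approximation of the effective length, the order of the 10 readers was the same, and the level per kilobase moved by more than the SD over the libraries for *Morf4l1* (8215), *Hdgfl2* (3144), *Msh6* (1187) and *Mtf2* (808). With the read assignment variance taken off the variance over the libraries, the SD and the limit of the leading *Hdgfl2* transcript both became 0, since its read assignment variance was the larger. The other 20 values tried under this setting moved by less than the SD or by less than 1.5 times. An SD that stays above 0 meets the first of these by construction. For *Msh6* the SD went from 0.0256 to 0.0169 on the log2 scale and the limit from 0.0444 to 0.0293. The 10 levels without the 0.5 taken off moved by less than the SD over the libraries. The 30 values from transcripts with a level of at least 10 could not move. The lowest reader transcript, Morf4l1-211, had a level of 12.5, so none was left out. The median percentile of the readers' spread was 29.6 among all transcripts and 42.0 among transcripts with a level of at least 100. With the read assignment variance taken off, the reader transcripts with a limit under 0.5 rose from 15 to 21, and those under 1 from 22 to 25. No share over all transcripts is given for this setting, and a limit from the reduced variance is no longer an algebraic bound. No paired analysis was possible because the results come from no test and the columns carry no replicate numbers. For the same reason no library could be left out and KD was not fitted against WT. The limits rest on 2 libraries in each group and say nothing of other transfections, and the means and variances hold no direction.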
